A study of Homo sapiens with 8 samples.

Results

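The comparison described here is the difference between 2 responses to a nucleoside analogue: the effect of 5-chlorouridine (5-ClUrd) on the RNA contacts of DUS2L minus its effect on those of DUS1L. All 8 libraries of the series enter it. They were iCLIP libraries, in which a tagged protein crosslinked to RNA is pulled down and the crosslinked nucleotide is read from where reverse transcription stops. The cells were Flp-In T-REx 293, a line derived from human embryonic kidney, and each line carried a 3xFLAG-tagged copy of DUS1L or of DUS2L that tetracycline switches on, next to the cells' own enzymes. Tetracycline at 1 µg/mL was given to all 4 groups for 12 h, and for 12 h more either alone (untreated) or with 100 µM 5-ClUrd. Each group had 2 libraries, described as biological replicates, and no library of cells without a tagged enzyme is among the 8.

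Dihydrouridine synthases reduce uridine to dihydrouridine, a base known above all from tRNA, where most of it lies in the D loop, the left arm of the cloverleaf. A halogenated uridine that cells build into RNA can hold such an enzyme on the base it tries to reduce. Human DUS2L is known for dihydrouridine in the D loop, and DUS1L is another member of the same enzyme family. tRNA is divided into type I, with a short variable loop, and type II, with a long variable arm, to which leucine, serine and selenocysteine tRNA belong. An isoacceptor family is here the set of tRNA genes with the same amino acid and anticodon.

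The members were 55 families (50 of tRNA and 5 of rRNA) and 141 tRNA positions, counted from the 5′ end of the reference as the files number them, with type I (64 positions) and type II (77) kept apart. Below these came the 10694 sites, each a position in 1 family, of which 4424 had at least 10 counts over the libraries and were tested. Type I positions ran to 65 and type II positions to 78, and they are not the canonical tRNA numbers. Region names therefore mark intervals of this count only: positions 14 to 21 are called the D loop, 32 to 38 the anticodon loop and 54 to 60 the T loop.

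Sense crosslink counts were 144322 and 7369 in the untreated DUS1L libraries and 824657 and 542521 with 5-ClUrd. They were 130011 and 172078 in the untreated DUS2L libraries and 370878 and 363024 with 5-ClUrd. A count of 3 is 0.0407% of the second untreated DUS1L library and at most 0.00231% of any other. The highest count at 1 nucleotide of 1 reference was 555 in that thin library and between 1061 and 1436 in the other 7. These maxima differed far less than the totals, so at such nucleotides a share can fall while the counts do not. Whether the maxima reflect a limit of the counting was not tested. Sites with over 500 counts in any library took between 69.0% and 94.0% of the sense counts. Results on families and positions are given without those sites as well where the direction turns. The deposited site files of the 2 enzymes carry different name endings, so a difference in how they were made cannot be told apart from the enzyme.

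In the fit over all 8 libraries, 6 of 55 families (10.9%) responded more positively in DUS2L and 10 of 55 (18.2%) more negatively, at a Benjamini-Hochberg adjusted p of 0.05 from the edgeR quasi-likelihood fit. The 10 negative ones were 3 leucine families, both glutamine families, 1 glutamate family, the aspartate and histidine families, 1 serine family and 28S rRNA. The 6 positive ones were a cysteine, a threonine, an elongator methionine, an arginine and 2 valine families. The groups differed in where the change lay: of the 10 negative families, 9 rose in DUS1L and 2 of these also rose in DUS2L, while 28S rRNA fell in DUS2L. Of the 6 positive families, 5 rose in DUS2L, 1 of these (tRNA-Thr-TGT) also rose in DUS1L, and the remaining one, tRNA-Val-CAC, fell in DUS1L.

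**Figure D1:**
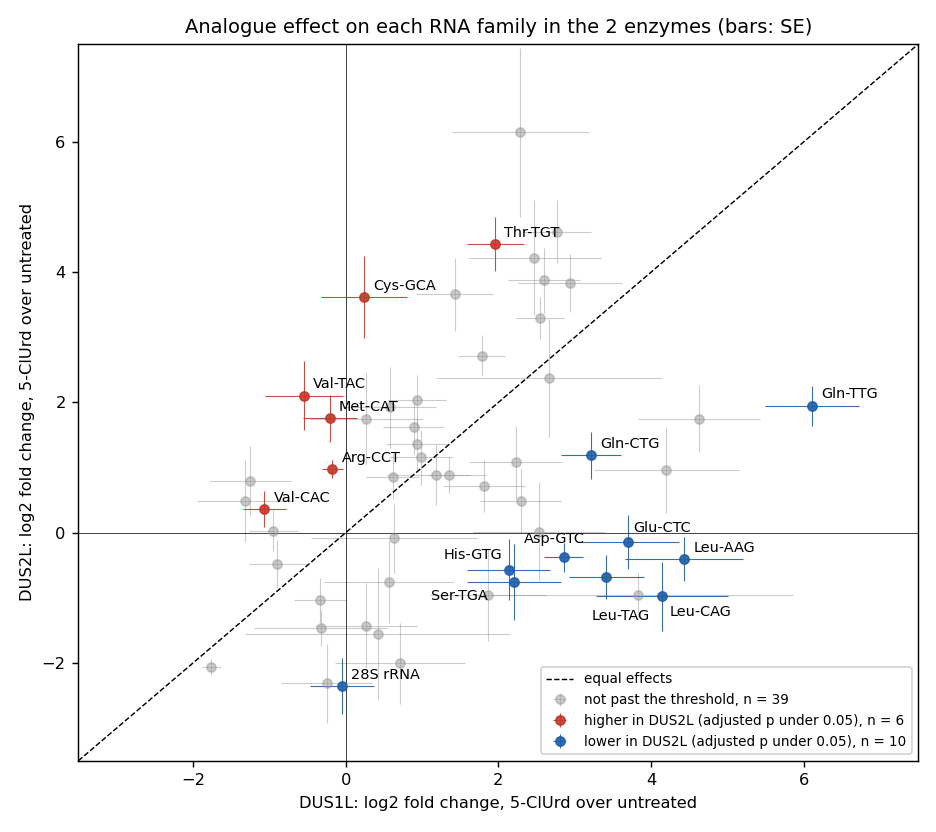
Log2 fold change with 5-ClUrd in DUS1L (horizontal axis) and DUS2L (vertical axis) for each of the 55 families, with SE bars and the line of equal effects. The 10 families lower in DUS2L lie below the line and the 6 higher ones above it; tRNA-Gln-TTG, at 6.11 and 1.95, is the farthest to the right.

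tRNA-Asp-GTC, which carries aspartate, had the smallest adjusted p of the 55. It has 13 genes, among them TRD-GTC2-1 on chromosome 1 (161440825 to 161440896) and TRD-GTC1-1 on chromosome 12 (98503503 to 98503574; hg38). It took 0.0637% and 0.0407% of counts in the untreated DUS1L libraries and 0.369% and 0.469% with 5-ClUrd, and 10.6% and 9.68% in untreated DUS2L against 8.08% and 7.55%. Its share was thus many times higher in all 4 DUS2L libraries, and it rose in DUS1L (log2 2.85 ± 0.26, SE) from this low level. In DUS2L the log2 change was -0.38 ± 0.22 (adjusted p = 0.176). The difference between the effects was -3.23 ± 0.34 (adjusted p = 0.00116). The 4 treated-over-untreated ratios ran from 2.52 to 3.30 in DUS1L and from -0.49 to -0.26 in DUS2L and did not overlap.

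tRNA-His-GTG showed the same order of levels. Its counts were 0.0554% and 0.204% in untreated DUS1L, 0.402% and 0.498% with 5-ClUrd, 8.74% and 9.44% in untreated DUS2L, and 5.53% and 6.75% with 5-ClUrd. The difference was -2.70 ± 0.72 (adjusted p = 0.0278), and every treated DUS1L library was above both untreated ones while both treated DUS2L libraries were below. Without the first untreated DUS1L library the difference was -1.71. tRNA-Gln-CTG rose in both enzymes' cells, from 0.211% and 0.122% to 1.76% and 1.54% in DUS1L and from 1.00% and 1.04% to 2.11% and 2.54% in DUS2L. Here the 2 responses had 1 direction and differed in size (3.22 ± 0.39 against 1.18 ± 0.35), with a difference of -2.03 ± 0.51 (adjusted p = 0.0260). Without the nucleotides above 500 counts the direction turned for these 3 families: the difference was 1.33 for tRNA-Asp-GTC, 1.75 for tRNA-His-GTG and 1.45 for tRNA-Gln-CTG, none past the threshold.

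Serine tRNA, of type II, had 1 of 4 families past the threshold, a share near the 18.2% of all families called lower. tRNA-Ser-TGA, with 4 genes such as TRS-TGA1-1 on chromosome 10 (67764503 to 67764584), took 0.239% and 1.07% in untreated DUS1L and 2.66% and 3.04% with 5-ClUrd. In DUS2L it took 5.93% and 6.64% untreated and 3.88% and 3.56% with 5-ClUrd. It therefore lay higher with the analogue in one enzyme's cells and lower in the other's, with no overlap in either, and the difference was -2.96 ± 0.85 (adjusted p = 0.0318). tRNA-Ser-AGA (-3.24), tRNA-Ser-CGA (-2.51) and tRNA-Ser-GCT (-1.15) did not pass.

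The leucine four-codon box (anticodons AAG, CAG and TAG) had all 3 families called lower in DUS2L. The two-codon box (CAA and TAA) had 0 of 2 called, with a median difference of -2.31. tRNA-Leu-CAA (-2.82, adjusted p = 0.0730) and tRNA-Leu-TAA (-1.81, adjusted p = 0.0841) were negative too. Their treated-over-untreated ratios did not overlap between the enzymes, so the boxes differ in calls and not in direction. tRNA-Leu-TAG took 0.00901% and 0.0136% in untreated DUS1L, 0.0843% and 0.119% with 5-ClUrd, 3.46% and 3.83% in untreated DUS2L and 2.21% and 2.34% with 5-ClUrd. Its difference of -4.09 ± 0.59 (adjusted p = 0.00508) rests on 14 untreated DUS1L counts. tRNA-Leu-CAG (-5.12) had 7, tRNA-Glu-CTC (-3.85) had 6, and 1 each stood behind tRNA-Leu-AAG (-4.84) and behind tRNA-Gln-TTG (-4.15). For the last pair, the ratio of summed DUS1L shares was 22.1 with a 95% counting interval of 3.92 to 876 and 70.8 with an interval of 12.7 to 2800. The rise in DUS1L is thus loosely bounded above for these families, while their DUS2L ratios, 0.746 and 3.87, rest on at least 260 counts in each group. Without the first untreated DUS1L library tRNA-Leu-CAG was at -2.80. The tRNA-Leu-AAG, tRNA-Gln-TTG and tRNA-Glu-CTC families then had an empty untreated DUS1L group and lost their calls (adjusted p of 0.188, 0.279 and 0.0845; fitted values -9.09, -8.41 and -10.6, which are no bounds). Without sites above 500 counts tRNA-Leu-TAG kept its call, and tRNA-Leu-AAG (-0.76, adjusted p = 0.644), tRNA-Leu-CAG (-3.16, adjusted p = 0.0906) and tRNA-Glu-CTC (-1.77, adjusted p = 0.213) did not. Over all 10 type II families, 0 were higher and 4 lower, with a median of -2.89 beside -0.31 over the 55.

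28S rRNA, the large ribosomal RNA (RNA28SN1, chromosome 21, 8441146 to 8446211), was lower through its fall in DUS2L. It took 0.705% and 0.312% in untreated DUS1L and 0.523% and 0.497% with 5-ClUrd, against 14.4% and 10.1% in untreated DUS2L and 1.79% and 3.01% with 5-ClUrd. The DUS1L libraries overlapped and the DUS2L ones did not, and the difference was -2.30 ± 0.60 (adjusted p = 0.0260). The other 4 rRNA families (5.8S, 18S, 5S and the 45S spacers) had differences of -2.72, -2.06, -1.33 and -1.69, none past the threshold.

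Among the families higher in DUS2L, tRNA-Arg-CCT was the most abundant in DUS1L and had the smallest SE. Its shares were 10.3% and 10.3% in untreated DUS1L and 9.52% and 8.75% with 5-ClUrd, and 0.879% and 0.867% in untreated DUS2L and 1.72% and 1.71% with 5-ClUrd. It rose in DUS2L (log2 0.97 ± 0.14) from a level far under that in DUS1L, where the change was -0.17 ± 0.14 (adjusted p = 0.327). The difference was 1.15 ± 0.19 (adjusted p = 0.00741), and it ran from 0.070 to 1.27 over 19 alternative fits. It has 5 genes, 4 of them located, such as TRR-CCT1-1 and TRR-CCT2-1 side by side on chromosome 17 (75033906 to 75033978 and 75034431 to 75034503).

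tRNA-Cys-GCA had the largest positive difference among the called families (3.38 ± 0.83, adjusted p = 0.0257), with shares of 0.959% and 0.244% in untreated DUS1L, 0.707% and 0.785% with 5-ClUrd, 0.0400% and 0.0250% in untreated DUS2L and 0.346% and 0.451% with 5-ClUrd. Its 2 untreated DUS1L libraries lay on both sides of the treated ones, and without the first of them the difference was 2.02. tRNA-Val-TAC, with 5.01% and 1.68% untreated and 2.27% and 2.34% treated in DUS1L, had the same spread of the untreated pair, beside 0.496% and 0.437% rising to 1.68% and 2.32% in DUS2L (difference 2.65 ± 0.73, and 1.65 without the first untreated DUS1L library). tRNA-Thr-TGT rose in both, more so in DUS2L (4.43 ± 0.41 against 1.96 ± 0.38; difference 2.47 ± 0.52). tRNA-Met-CAT, the elongator methionine tRNA, went from 0.461% and 0.603% to 1.40% and 2.19% in DUS2L and from 3.36% and 3.64% to 3.25% and 2.80% in DUS1L (difference 1.97 ± 0.51). tRNA-Val-CAC, the sixth, went from 8.52% and 5.02% to 3.50% and 3.00% in DUS1L and from 3.72% and 4.31% to 5.84% and 4.51% in DUS2L, a difference of 1.43 ± 0.40.

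**Figure D2:**
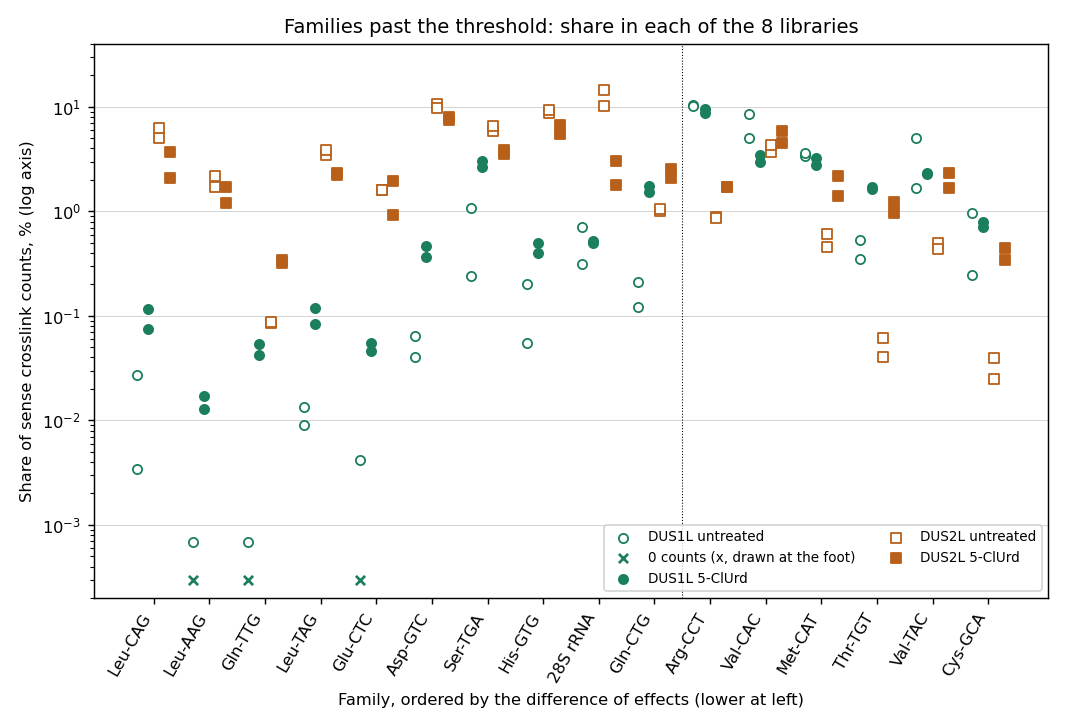
Share of sense counts (log axis, percent) of the 16 called families in each of the 8 libraries, DUS1L as circles and DUS2L as squares, untreated open and treated filled; crosses at the foot are libraries with 0 counts. At the left, untreated DUS1L points of the Leu-AAG and Gln-TTG families rest on 1 count; for Arg-CCT, Met-CAT and Cys-GCA the treated DUS2L points lie above the untreated ones.

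The 4 ratios of each enzyme were apart in 16 of 55 families (29.1%) in the positive and in 21 of 55 (38.2%) in the negative direction, and the 16 called families were all among them. By amino acid, all 3 alanine families had ratios apart and positive (median 1.85) although 0 of 3 passed; tRNA-Ala-CGC (1.85 ± 0.61) and tRNA-Ala-TGC (2.23 ± 0.72) had an adjusted p of 0.0508. The 3 threonine families were apart and positive too, with 1 call and a median of 1.28. In the arginine group 1 of 5 was called, and tRNA-Arg-TCG, which fell in both enzymes' cells (-1.76 ± 0.12 and -2.07 ± 0.12), had a difference of -0.31 ± 0.17 (adjusted p = 0.171). The asparagine family tRNA-Asn-GTT rose in both (1.35 ± 0.28 and 0.88 ± 0.28), with a difference of -0.47 ± 0.39. tRNA-Ala-AGC (0.94), tRNA-Lys-CTT (1.35) and tRNA-Lys-TTT (0.73), abundant families that did not pass, were positive here and negative with TMM factors (-0.28, -0.21 and -0.13).

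The scaling sets the zero of these differences. Their median over families was -0.31 with total counts and was shifted by -1.06 with TMM factors, which left 0 of the 6 positive and 9 of the 10 negative calls. With those factors 0 positive families reached an unadjusted p of 0.05. The Wald test of DESeq2 called 5 positive and 17 negative families. Over 19 alternative fits tRNA-Arg-CCT went down to 0.070 and tRNA-Asp-GTC up to 1.33, while tRNA-Leu-TAG stayed between -4.85 and -3.58. Only tRNA-Leu-TAG, tRNA-Asp-GTC and tRNA-Arg-CCT kept their calls in each of the 8 fits with 1 library left out, with adjusted p of up to 0.0366, 0.0204 and 0.0404. Without the first or second untreated DUS1L library 13 and 12 families were positive, and without the second 16 were negative. Without the first or second treated DUS1L library 1 and 1 were positive, and 4 were negative without the second. Without the first or second untreated DUS2L library 2 and 1 were positive and 6 and 6 negative, and 6 were negative without the first and 2 positive without the second treated one.

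Summed over families, the type II share differed in direction between the enzymes. Type II tRNA took 0.875% and 3.01% of counts in untreated DUS1L and 8.63% and 9.51% with 5-ClUrd. In DUS2L it took 28.5% and 33.7% untreated and 26.2% and 21.5% with 5-ClUrd. The share was therefore higher with the analogue in DUS1L and lower in DUS2L, with no overlap in either. The shares of type I tRNA, type II tRNA and rRNA sum to the whole library, so their differences are tied to each other. The type II difference was -14.4 ± 3.68 percentage points, with an exact two-sided permutation p of 0.0556, the smallest that 36 arrangements of the treatment labels within each enzyme allow. For rRNA the difference was -13.1 ± 3.03 points (exact permutation p = 0.167). The DUS1L effect was 0.0549 points, and exchanging the DUS1L labels alone gives larger differences. This p therefore does not test the difference. The rRNA difference was -36.6 without sites above 500 counts and -34.8 with each site counted once. The type I difference, 27.4 ± 1.67 points, is fixed by these and is no separate result.

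Along the tRNA, the effect differed between the enzymes at 53 of 138 tested positions. It was higher in DUS2L at 4 of 138 (2.9%) and lower at 49 of 138 (35.5%). The 2 tRNA types took part unequally: type I held all 4 higher and 4 of the lower positions out of 64, and type II held 45 of the lower positions out of 74, with 0 higher. The median difference was 0.26 over type I and -4.32 over type II positions, or -3.81 with positions of an empty group set to 3 counts. In type I tRNA the lower calls ran from position 8 to 17 and the higher ones from position 32 to 59.

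**Figure D3:**
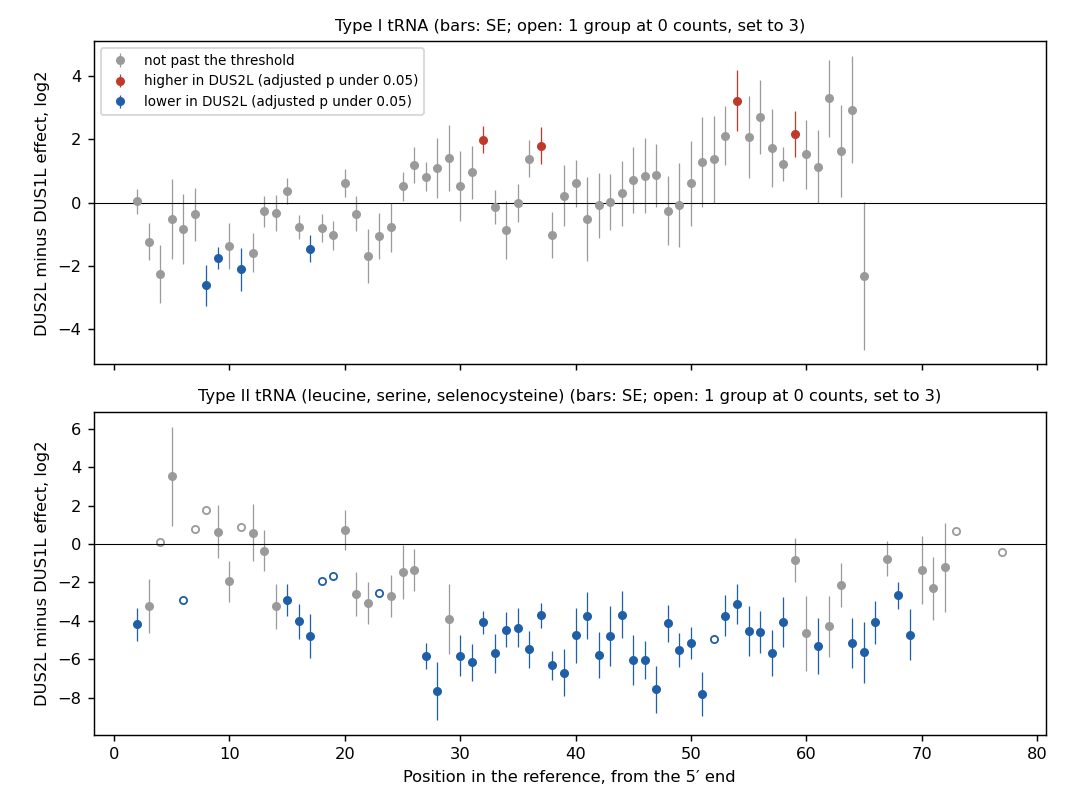
Difference of the 5-ClUrd effects (DUS2L minus DUS1L, log2) at each position of type I (top) and type II (bottom) tRNA, with SE bars; open points have 1 group at 0 counts, which was set to 3, and the type II position with 2 empty groups is left out. Type I positions called lower are 8, 9, 11 and 17 and those called higher are 32, 37, 54 and 59, while the type II calls all lie below 0.

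Type I position 9 had the smallest adjusted p in its type. It took 0.753% and 0.624% of counts in untreated DUS1L and 2.27% and 2.60% with 5-ClUrd, and 4.96% and 4.91% in untreated DUS2L and 4.79% and 5.57% with 5-ClUrd. It rose in DUS1L alone by the test (1.81 ± 0.25), and the difference was -1.74 ± 0.35 (adjusted p = 0.00687). Position 8 went from 0.0450% and 0.0407% to 0.424% and 0.525% in DUS1L and from 0.955% and 0.909% to 1.34% and 1.96% in DUS2L (difference -2.61 ± 0.64). Position 11 (-2.11 ± 0.69) and position 17, in the D loop (-1.45 ± 0.43), rose in DUS1L as well. In untreated DUS2L the leading family at positions 8, 9 and 11 was tRNA-Asp-GTC, with a mean of 49.4%, 32.8% and 51.6% of the counts there, and in DUS1L it was a lysine, arginine or valine family. Without the nucleotides above 500 counts, position 8 had a difference of 0.65 and position 17 of 0.98, neither past the threshold.

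In the anticodon loop, position 32 took 5.94% and 8.82% in untreated DUS1L and 1.91% and 2.14% with 5-ClUrd, a fall of log2 -1.87 ± 0.30. The summed DUS1L counts were 9222 untreated and 27350 treated, so position 32 fell in share and not in counts. In DUS2L it stayed between 1.11% and 1.45% in all 4 libraries, and the difference was 2.00 ± 0.42 (adjusted p = 0.00731). tRNA-Arg-CCT supplied 65.3%, 35.0%, 38.5% and 55.6% of the counts there in untreated and treated DUS1L and untreated and treated DUS2L. Position 37 had 6.79% and 19.5% in untreated DUS1L, 2.45% and 3.31% with 5-ClUrd, 1.88% and 1.94% in untreated DUS2L and 1.54% and 1.39% with 5-ClUrd. The 2 untreated DUS1L libraries thus differed widely there, although both were above the treated ones, and the difference was 1.81 ± 0.60 (adjusted p = 0.0406). Without the second of them it was 0.85, and 2 of the 8 fits with 1 library left out kept the call.

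In the T loop, the larger fitted change was in DUS2L (2.49 ± 0.70 at position 54 and 1.96 ± 0.52 at position 59). In DUS1L the change was -0.74 ± 0.67 and -0.21 ± 0.50. Neither position passed the test within either enzyme. Position 54 took 0.0777% and 0.124% in untreated DUS2L and 0.388% and 0.748% with 5-ClUrd, and 2.91% and 0.746% in untreated DUS1L and 1.33% and 0.885% with 5-ClUrd. The DUS1L libraries overlapped, the DUS2L ones did not, and the difference was 3.23 ± 0.96 (adjusted p = 0.0285), or 1.92 without the first untreated DUS1L library. Position 59 had 0.169% and 0.327% in untreated DUS2L, 0.746% and 1.18% with 5-ClUrd, 3.29% and 1.56% in untreated DUS1L and 1.83% and 2.38% with 5-ClUrd (difference 2.17 ± 0.72, adjusted p = 0.0406). Positions 32 and 9 kept their calls in each fit with 1 library left out (adjusted p up to 0.0438 and 0.0431), and with TMM factors position 9 had an adjusted p of 0.229. Without sites above 500 counts 0 of the 4 higher positions were called (32 at 0.82, 37 at 0.70, 54 at 2.55 and 59 at 1.33), and position 9 was at -0.19 and position 11 at -0.45, neither called. Without the first or second untreated DUS1L library 9 and 19 of the 138 positions were higher, and 31 lower without the first. Without the first treated DUS1L library 1 was higher and 30 were lower, without the second 1 was higher, and without the untreated DUS2L libraries 1 and 2 were higher, with 32 lower without the second. Without the second treated DUS2L library 2 were higher.

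Of the 45 type II calls, 5 had 0 and 20 had 1 to 3 counts in the 2 untreated DUS1L libraries together. Position 27 was among the fullest, with 0.0104% and 0.0271% in untreated DUS1L, 0.469% and 0.394% with 5-ClUrd, 4.38% and 5.39% in untreated DUS2L and 3.49% and 2.08% with 5-ClUrd. It rose in DUS1L (5.04 ± 0.56), and the difference was -5.85 ± 0.68 (adjusted p = 0.00161). Position 32 of type II tRNA went the other way from position 32 of type I, with 0.112% and 0.109% in untreated DUS1L, 0.956% and 1.26% with 5-ClUrd, 2.09% and 2.32% in untreated DUS2L and 1.56% and 1.05% with 5-ClUrd (difference -4.08 ± 0.58). The fullest type II position, 26, with 80352 counts over the libraries, was not called (difference -1.36 ± 1.07, adjusted p = 0.354). Positions 25 (-1.47, adjusted p = 0.446) and 67 (-0.77, adjusted p = 0.532), also well counted, were not called either. Positions 27 and 32 were chosen for their counts after the values had been seen.

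The rule for named positions picked 52, 6, 23 and 51 of type II. Positions 52, 6 and 23 had 0 untreated DUS1L counts and 214, 348 and 129 treated ones, so that the difference was at least 30.6-fold, 7.42-fold and 5.84-fold lower, with 3 counts over the group set for the empty one. These bounds use group sums, to which the second untreated DUS1L library adds few counts. At position 23 the ratios of single libraries overlapped. Position 51 had 1 untreated and 236 treated DUS1L counts, which gave 26.2 as the ratio of shares (counting interval 4.65 to 1039), beside 1356 and 356 in DUS2L, where tRNA-Leu-CAG supplied a mean of 96.9% of the untreated counts.

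As shares of type I counts, the D loop lay higher with the analogue in DUS1L and lower in DUS2L. It took 10.8% and 15.0% in untreated DUS1L, 20.6% and 20.5% with 5-ClUrd, 28.4% and 28.9% in untreated DUS2L and 27.4% and 25.1% with 5-ClUrd. The groups did not overlap in either, and the 2 enzymes' D loop shares were closer to each other with the analogue than without it. The difference was -10.1 ± 2.39 points (exact p = 0.0556, the smallest possible; 0.500 adjusted over 9 regions), -6.30 as a mean over 25 isoacceptors, and 0.297 with each site counted once.

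**Figure D4:**
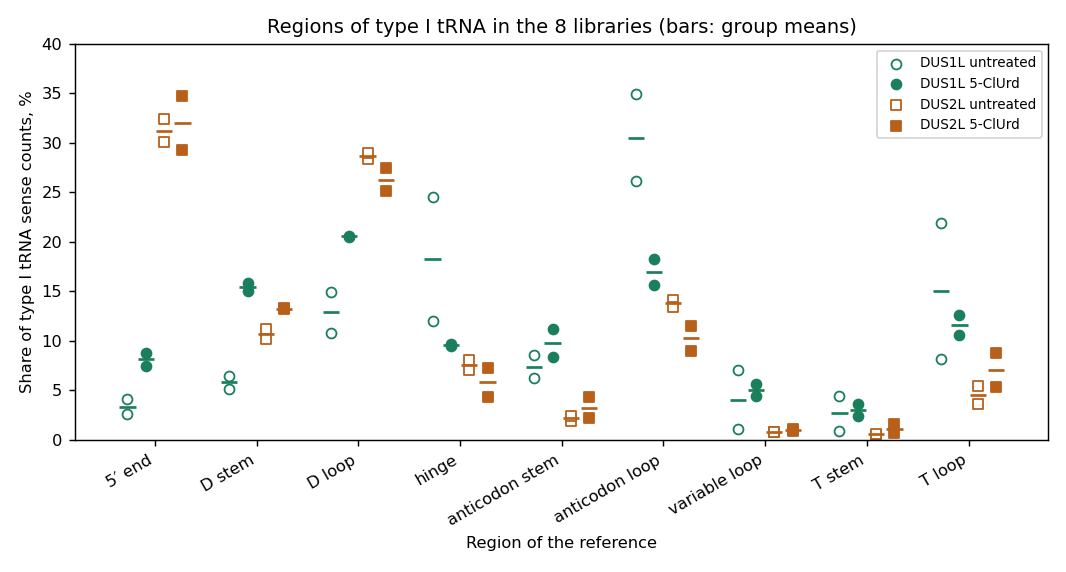
Share of type I tRNA sense counts (percent) in 9 regions of the reference, with 1 point per library and a bar at each group mean; DUS1L as circles, DUS2L as squares, untreated open and treated filled. In the D loop the DUS1L means go from 12.9% to 20.6% and the DUS2L means from 28.7% to 26.3%.

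The D stem had a difference of -7.07 ± 0.918 points, with 6.47% and 5.15% going to 15.8% and 15.0% in DUS1L and 11.2% and 10.2% to 13.2% and 13.3% in DUS2L (exact p = 0.333), or 0.754 with each site counted once. Weighted by counts, the shares were 9.61 and 2.54 points higher with the analogue in DUS1L and DUS2L. With both in the same direction, exchanging the labels of a single enzyme gives a larger difference. The exact p could therefore not be small here and does not test the difference. The anticodon loop differed by 10.0 ± 4.78 points, with group means of 30.5% and 16.9% in DUS1L and 13.8% and 10.2% in DUS2L. Without the nucleotides above 500 counts its value was -11.1, and that of the 5′ end went from -4.01 to 11.9. The hinge (6.91 ± 6.41) and the T loop (6.03 ± 7.21) had differences about as large as their errors.

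At the level of sites, 36 of 4424 (0.814%) were higher in DUS2L and 75 (1.7%) lower. Tested were 1903 sites on type I tRNA, 547 on type II tRNA and 1974 on rRNA. Of the higher sites, 35 of 36 were on type I tRNA and 0 on type II. Of the lower sites, 47 lay on type II tRNA, 21 on type I and 7 on rRNA. tRNA-Ser-TGA alone had 28 lower sites among 69 tested, between positions 2 and 66. Behind 37 of the 75 lower sites stood 0 untreated DUS1L counts, and behind 54 of the 75 stood 3 or fewer. Of the 36 higher sites, 9 had 0 untreated DUS2L counts.

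**Figure D5:**
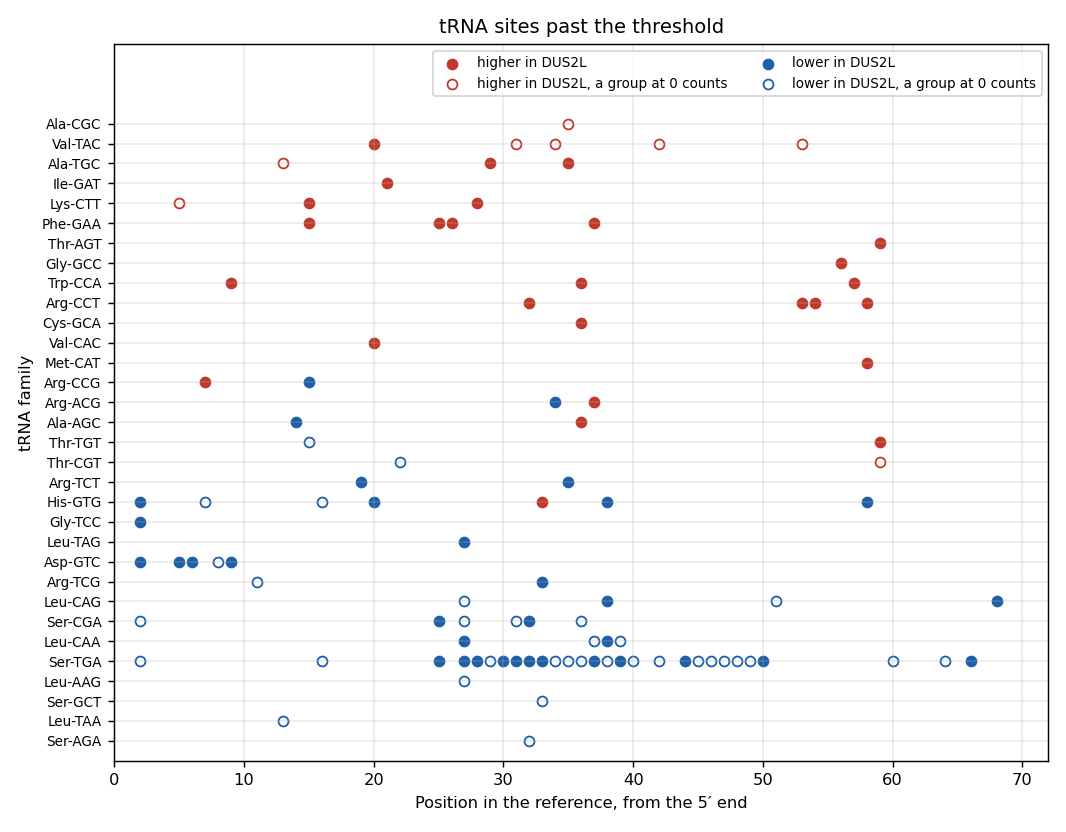
tRNA sites past the threshold, by position in the reference (horizontal axis) and family (vertical axis), red where the 5-ClUrd effect was higher in DUS2L and blue where it was lower, open where a group had 0 counts. tRNA-Ser-TGA holds 28 of the lower sites, and the 3 threonine families share a higher site at position 59.

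Position 59, in the T loop, was higher in all 3 threonine families. tRNA-Thr-TGT had 298 and 19 counts there in untreated DUS1L, 1084 and 1033 with 5-ClUrd, 7 and 7 in untreated DUS2L and 419 and 680 with 5-ClUrd. As shares of a library the DUS1L values lay between 0.131% and 0.258%, with both treated ones under both untreated ones, while in DUS2L 0.00538% and 0.00407% became 0.113% and 0.187% (difference 5.50 ± 1.11, adjusted p = 0.000211). The same site of tRNA-Thr-AGT had a difference of 4.58 ± 1.14 (adjusted p = 0.00530). That of tRNA-Thr-CGT had 0 counts in both untreated DUS2L libraries and 106 and 261 with 5-ClUrd, at least 12.1-fold higher than the DUS1L response. Position 15 of tRNA-Thr-TGT (649 and 351 treated counts, 0 untreated in DUS1L) was lower, so that sites of 1 family went both ways.

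tRNA-Arg-CCT had 4 higher sites, at positions 32, 53, 54 and 58. Position 32, its leading site in the treated libraries of both enzymes by summed counts, took 2.96% and 7.12% of untreated DUS1L counts, 0.617% and 0.805% with 5-ClUrd, 0.465% and 0.435% of untreated DUS2L counts and 0.716% and 0.694% with 5-ClUrd. Its share fell in DUS1L (-2.82), and the difference was 3.47 ± 0.68 (adjusted p = 0.000146). Its summed DUS1L counts were 4803 untreated and 9459 treated, so the counts themselves did not fall. Position 54 rose in DUS2L, from 10 and 16 counts to 237 and 396 (difference 4.59 ± 0.94, adjusted p = 0.000265). In DUS1L its summed share with 5-ClUrd was 0.302 of the untreated one (counting interval 0.287 to 0.319), so the difference came from both sides.

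tRNA-Phe-GAA, a phenylalanine family that did not pass as a whole (1.81 ± 0.89), had 4 higher sites at positions 15, 25, 26 and 37. At position 37 the untreated DUS1L libraries held 0.780% and 7.53% and the treated ones 0.155% and 0.198%, while the 4 DUS2L libraries lay between 0.152% and 0.168%. The summed DUS1L counts there were 1681 untreated and 2350 treated, so the share fell and the summed counts did not. The difference of 4.47 ± 0.75 (adjusted p = 2.01e-06) came from this fall in DUS1L share, where the thin second library was far above the first. At position 15 the difference was 5.86 ± 1.08, and without that library it was 1.06 (adjusted p = 0.805).

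On tRNA-Asp-GTC the 5 lower sites were positions 2, 5, 6, 8 and 9, all in the 5′ end. Position 9, the leading site of the family in both enzymes, had 19 and 1 counts in untreated DUS1L, 906 and 862 with 5-ClUrd, 2329 and 2489 in untreated DUS2L and 2516 and 2484 with 5-ClUrd. The near-equal counts of the 4 DUS2L libraries, whose totals differ, gave shares of 1.79% and 1.45% untreated and 0.678% and 0.684% treated (difference -4.59 ± 0.91, adjusted p = 0.000146). On tRNA-His-GTG 6 sites were lower, from position 2 to position 58, and position 33 was higher, where the untreated DUS1L libraries had 0 and 11 counts and overlapped the treated ones.

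Position 27 was lower in 4 of 5 leucine families. For tRNA-Leu-CAA it had 2 and 0 counts in untreated DUS1L, 1357 and 551 with 5-ClUrd, 2006 and 3400 in untreated DUS2L and 3940 and 2727 with 5-ClUrd (difference -7.60 ± 1.08, adjusted p = 9.72e-09). For tRNA-Leu-TAG the difference was -5.20 ± 1.04. For tRNA-Leu-CAG and tRNA-Leu-AAG, at 0 in untreated DUS1L, summed counts of 177 and 156 in treated DUS1L stood beside 3156 and 2143 in untreated and 4506 and 2470 in treated DUS2L. tRNA-Leu-CAG was also lower at positions 38, 51 and 68.

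On tRNA-Ser-TGA, position 32 was the best counted of the lower sites, with 86 and 1 counts in untreated DUS1L, 3626 and 3202 with 5-ClUrd, 1466 and 2004 in untreated DUS2L and 2222 and 1584 with 5-ClUrd (difference -4.68 ± 0.86, adjusted p = 3.15e-05). Position 31 rose in DUS1L and fell in DUS2L, each by its own test (5.40 and -2.04; difference -7.44 ± 1.13). The leading site of the family, position 26, did not pass the test (-1.21, adjusted p = 0.535). From position 27 to 50, all but positions 41 and 43 were lower. Positions 45, 46, 34 and 29, with 0 untreated DUS1L counts, had responses at least 68.5-fold, 49.4-fold, 47.2-fold and 41.4-fold lower in DUS2L. These bounds use group sums and cover counting error only. The zeros rest mainly on the first untreated DUS1L library, with 144322 sense counts against 7369 in the second.

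On 28S rRNA, 1 site was higher, at position 7977 of the 45S pre-rRNA reference (RNA45SN1, chromosome 21, 8433222 to 8446572). It had 76 and 343 counts in the treated DUS2L libraries, 0 and 0 in the untreated ones, 1 and 0 in untreated and 0 and 1 in treated DUS1L (adjusted p = 0.0448). In DUS2L the rise was at least 57.5-fold, and no fold can be given for DUS1L. On 18S rRNA, position 5374 had 69 and 37 counts in untreated DUS2L and 3 and 0 with 5-ClUrd, against 0 and 0, then 14 and 8 in DUS1L (adjusted p = 0.00300).

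Of the 36 higher and 75 lower sites, 21 and 18 were shared with the fit without the first untreated DUS1L library, which called 32 lower, and 28 and 73 with the one without the second, which called 69 and 126. Without the first treated DUS1L library 7 higher and 32 lower sites were called and without the second 7 and 30. Without the first treated DUS2L library 18 higher sites were called, and without the second 10 higher and 38 lower. With TMM factors, 6 and 46 of them were called, and with 1 untreated DUS2L library left out 4 lower and 0 higher sites passed (102 and 89 higher sites then had an unadjusted p under 0.05).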

How the data were processed

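Crosslink-site counts, whole numbers per nucleotide and strand of each tRNA or rRNA reference, were used as the authors deposited them. Reads were aligned with STAR 2.7.0f against hg38, per the submitters' processing notes; how duplicates and reads shared by near-identical tRNA copies were treated is not given in the sources used here, so members of 1 family cannot be told apart. Sense counts were summed per isoacceptor family, per position and per family and position. Features with at least 10 counts over the 8 libraries were fitted with edgeR 4.0.16 (quasi-likelihood F test, R 4.3.3) with 4 group means, library sizes set to total sense counts, and the contrast (DUS2L treated minus untreated) minus (DUS1L treated minus untreated). P-values were adjusted by Benjamini and Hochberg over all features of a fit, with a threshold of 0.05. Errors for shares are SE of the difference of means. Errors for families, positions and sites, called SE, are the absolute log2 value divided by the square root of its F statistic. They are rough where a group has few counts. Shares were tested by exact two-sided permutation of treatment within enzyme (36 arrangements). This takes treatment to have no effect in either enzyme, so its p does not by itself test whether the effects were equal. Its smallest possible value, 0.0556, is above the threshold. With 2 libraries a group, p-values measure the spread between these libraries. An empty group was set to 3 counts over the group for bounds, and 0.5 counts were added for ratios of single libraries. Counting intervals (95%, exact Clopper-Pearson on the split of counts) and floors cover counting error only.

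Named were all called families, then, up to 24 families, those of the highest mean share over the treated libraries; positions with at least 50 counts, by size of the difference, up to 8 of type I and 4 of type II per direction; up to 10 sites per direction likewise; and each named family's leading sites. Other features named were chosen after their values were seen, as were the leaving out of single references' nucleotides above 500 counts and of tRNA-Arg-TCG. The members and lists were chosen with earlier results of these data known. As alternatives, the fits were repeated with TMM factors, with size factors and the Wald test of DESeq2 1.42.0, and with other count minimums (1 and 50), the replicate number as a block, each library left out, high sites left out, both strands, and tRNA alone. Gene positions are RefSeq's on GRCh38.p14, matched by name for 398 of 413 tRNA genes.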

Additional observations from a re-analysis of the deposited data

Results flagged for a closer look

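The effect of 5-ClUrd differed between the 2 enzymes, by the test of the difference itself, in the following members, given as log2 differences (DUS2L minus DUS1L). Among families, the difference was positive for tRNA-Arg-CCT (1.15), tRNA-Val-CAC (1.43), tRNA-Met-CAT (1.97), tRNA-Thr-TGT (2.47), tRNA-Val-TAC (2.65) and tRNA-Cys-GCA (3.38). It was negative for tRNA-Leu-CAG (-5.12), tRNA-Leu-AAG (-4.84), tRNA-Gln-TTG (-4.15), tRNA-Leu-TAG (-4.09), tRNA-Glu-CTC (-3.85), tRNA-Asp-GTC (-3.23), tRNA-Ser-TGA (-2.96), tRNA-His-GTG (-2.70), 28S rRNA (-2.30) and tRNA-Gln-CTG (-2.03).

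Among type I positions it was positive at 54 (3.23), 59 (2.17), 32 (2.00) and 37 (1.81) and negative at 8 (-2.61), 11 (-2.11), 9 (-1.74) and 17 (-1.45). Among type II positions it was negative at 51 (-7.83), and at 52 (-4.94), 6 (-2.89) and 23 (-2.55), where the values are bounds with 3 counts set for the empty untreated DUS1L group.

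At sites with an empty group the bounds were positive for tRNA-Val-TAC at positions 31 (4.53), 42 (4.14), 34 (3.99) and 53 (3.52), tRNA-Ala-CGC at 35 (4.52), tRNA-Thr-CGT at 59 (3.59), tRNA-Ala-TGC at 13 (0.21) and tRNA-Lys-CTT at 5 (0.037). The last pair of bounds lies near 0, although both passed the test. They were negative for tRNA-Ser-TGA at 45 (-6.10), 46 (-5.63), 34 (-5.56), 29 (-5.37), 48 (-5.26), 35 (-5.17) and 47 (-5.15) and for tRNA-Ser-AGA at 32 (-5.03). tRNA-Phe-GAA position 15 had no empty group (5.86). No size can be given for 18S rRNA position 5374 (edgeR adjusted p = 0.00300), tRNA-Thr-CGT position 22 (0.00565) and 28S rRNA position 7977 (0.0448).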

How the results depend on the processing

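Scaling, high sites and single libraries moved the counts of calls most. With TMM factors there were 0 positive families, 11 positive positions, and 6 positive and 47 negative sites; the median difference moved by -1.06 over families and 0.91 over positions. DESeq2 size factors gave 7 positive positions and 23 positive and 149 negative sites, and DESeq2's Wald test gave 17 negative families, 9 positive positions and 128 negative sites. Without sites above 500 counts there were 3 negative families, 20 negative positions and 17 negative sites; 3 of the 6 positive and 2 of the 10 negative families and 0 of the 4 positive positions were shared, and the median moved by 1.18 over families and 1.29 over positions. Without single references' nucleotides above 500 counts there were 6 negative families, 2 positive and 26 negative positions, and 23 positive and 25 negative sites. tRNA alone gave 2 positive positions and 115 negative sites, and a minimum of 1 count gave 21 positive sites.

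Correlations of same-numbered deviations ran from -0.38 to 0.30 between groups. Between treated and untreated libraries they were 0.27 in DUS1L and 0.30 in DUS2L. With 2 libraries a group, these values cannot decide whether the replicate numbers pair the samples. With the replicate block 7 families were positive and 10 negative, 1 position was positive, and 18 sites were positive. With a block within each enzyme, 11 sites were positive and 46 negative.

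With 1 library left out, a lone library being assumed to vary like the others, 1 to 13 families were positive and 4 to 16 negative, 1 to 19 positions positive and 30 to 63 negative, and 0 to 69 sites positive and 4 to 126 negative. Of 16 called families 3 kept their calls in all 8 such fits, of 12 named positions 3, and of 20 named sites 0.

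The direction turned without sites above 500 counts for tRNA-Asp-GTC (1.33), tRNA-His-GTG (1.75), tRNA-Gln-CTG (1.45), tRNA-Arg-TCT (0.87), tRNA-Asn-GTT (0.062) and type I positions 8 (0.65) and 17 (0.98); without references' nucleotides above 500 counts for tRNA-His-GTG (1.17) and tRNA-Arg-TCT (0.54); and with TMM factors for tRNA-Ala-AGC (-0.28), tRNA-Lys-CTT (-0.21) and tRNA-Lys-TTT (-0.13). With 1 library left out tRNA-Lys-CTT ran from -0.0029 (without the second untreated DUS1L library) to 2.06. The fitted values of tRNA-Val-TAC at positions 31, 42 and 34, which have an empty group and are no bounds, ran from -1.10 to 9.61, -1.47 to 9.20 and -0.63 to 8.99, with the lowest without the first untreated DUS1L library.

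The difference in regional shares without sites above 500 counts was 11.9 points for the 5′ end, -0.214 for the hinge, 11.3 for the anticodon stem, -11.1 for the anticodon loop, 5.08 for the T stem and -36.6 for rRNA. With each site counted once it was 0.754 for the D stem, 0.297 for the D loop, 1.12 for the anticodon stem, -0.417 for the anticodon loop and -34.8 for rRNA. As a mean over isoacceptors it was 1.00 for the 5′ end, -6.30 for the D loop and 2.74 for the anticodon loop. With 1 library left out it ran from -6.71 to -1.30 for the 5′ end, -7.73 to -6.41 for the D stem, -12.1 to -7.999 for the D loop, 0.675 to 13.1 for the hinge, -2.71 to 0.0841 for the anticodon stem, 5.66 to 14.4 for the anticodon loop, -3.73 to 2.22 for the variable loop, -1.53 to 2.00 for the T stem, -0.845 to 12.9 for the T loop and -15.9 to -10.2 for rRNA. The causes were not tested. Depth limits most the second untreated DUS1L library, where 3 counts are 0.0407% of the total.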
